A study of Mus musculus with 4 samples.

Results

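The glutathione S-transferases are enzymes that join the tripeptide glutathione to reactive compounds, and the 10 genes described here are cytosolic and membrane-bound members of that family. They were Gsta4 of the alpha class, Gstm1, Gstm2 and Gstm5 of the mu class, Gstt1 and Gstt2 of the theta class, Gsto1 of the omega class, and the microsomal genes Mgst1, Mgst2 and Mgst3. They were taken by name from the array's annotation, with every probe set assigned to that gene alone, which gave 16 of 34945 probe sets with a single gene symbol and 10 of 18193 named genes. Where a gene had several probe sets, the one with the highest mean over the 4 arrays stood for it.

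Total RNA of 3T3-MEFs was measured on 4 Affymetrix arrays, 2 from SMRTmRID cells and 2 from wild-type cells. 3T3-MEFs are mouse embryonic fibroblasts immortalised by serial passage, and both genotypes were harvested undifferentiated, at confluence. SMRT is a corepressor through which nuclear receptors silence genes, and in the SMRTmRID cells its receptor interaction domains carry a mutation. The mutation alters the protein, so no signal here checks the genotype label. The arrays of a genotype are labelled technical replicates, so p-values measure only the spread between technical replicates, and the spread between independent lines or embryos was not analysed here. Strain, passage number and the number of lines per genotype are not given in the sources used here. In RNA of whole cultures, fewer cells that express a gene and less RNA per cell cannot be told apart.

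Cytosolic glutathione transferases are soluble dimers that attach the thiol of glutathione to electrophiles, which makes them more soluble and marks them for export. The microsomal enzymes belong to the MAPEG family, trimers of the endoplasmic reticulum and outer mitochondrial membrane that include enzymes of leukotriene and prostaglandin synthesis. Several transferase genes are known targets of the transcription factor NRF2, which binds the antioxidant response element and also drives the genes that make and reduce glutathione.

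The arrays were close within a genotype. Across 11056 tested genes, those whose mean signal exceeded 35.1, Pearson's r was 0.991 between the SMRTmRID arrays and 0.991 between the wild-type arrays, and 0.860 to 0.861 between arrays of different genotype. Fibroblast markers were strongly expressed in both genotypes, with all 7 above the filter, 3 of them higher and 3 lower in SMRTmRID. Markers of adipocytes, endothelium and hepatocytes were all under the filter where they were named (3, 4 and 3 genes). The summed signal of the blood markers was 146 and 145 in SMRTmRID cells and 84.5 and 55.8 in wild-type cells, with only Lyz2 of the 4 above the filter and Ptprc at no more than 11.9 on any array. The 4 epithelial markers summed to 209 and 175 in SMRTmRID cells and 288 and 248 in wild-type cells. Only Epcam was above the filter, and it was lower in SMRTmRID (log2 difference -0.37, limma adjusted p = 0.0249). Cdh1, with a mean under the filter, had signals of 2.41 and 1.61 in SMRTmRID and 55.9 and 42.3 in wild-type. The 3 chondrocyte markers summed to 71.1 and 89.7 in SMRTmRID cells and 2607 and 2732 in wild-type cells, of which Col2a1 made up 46.1 and 29.3 in SMRTmRID and 2555 and 2703 in wild-type. The part of that marker difference in the results below was not tested.

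Most of these 10 transferase genes were higher in SMRTmRID cells. The 10 were chosen with earlier results of these data known, so the shares of all tested genes given beside them are description and no test. The 9 further transferase genes tested, described below, had a median log2 difference of 0.09, with 4 higher and 1 lower. Of the 10 genes 9 passed the filter on signal. Of these 9, 6 were higher in SMRTmRID, 2 were lower and 1 missed the threshold (limma across all tested genes, Benjamini-Hochberg adjusted p under 0.05). Mgst1 and Gstm2 had the greatest rises and Mgst2 had the greatest fall. The 2 lower calls rested on single arrays: neither passed without wild-type replicate 2, and 1 passed without SMRTmRID replicate 2. Among all tested genes 65.2% passed, 30.3% as higher and 35.0% as lower in SMRTmRID, so a call by itself was common. With median centring of the arrays 2472 of all genes were called higher and 4735 lower, against 3346 and 3866 as deposited, and the transferase counts stayed at 6 and 2. At least a 2-fold change with a call was found for 4 of the 9 transferase genes, against 16.5% of all tested genes. The 2 genotypes had no overlapping arrays for 8 of the 9, against 81.5% of all tested genes, with 6 of them higher in SMRTmRID (38.1% of all tested genes) and 2 lower (43.4%). The median log2 difference was 0.73 over the 9 tested transferase genes, and -0.05 over all tested genes. Each log2 difference is the mean of log2(signal + 16) in SMRTmRID less that in wild-type, and the added 16 shrinks changes of dim genes. Signals are MAS5 signals in arbitrary units, and signals of different genes are not comparable because each probe set has its own response.

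**Figure D1:**
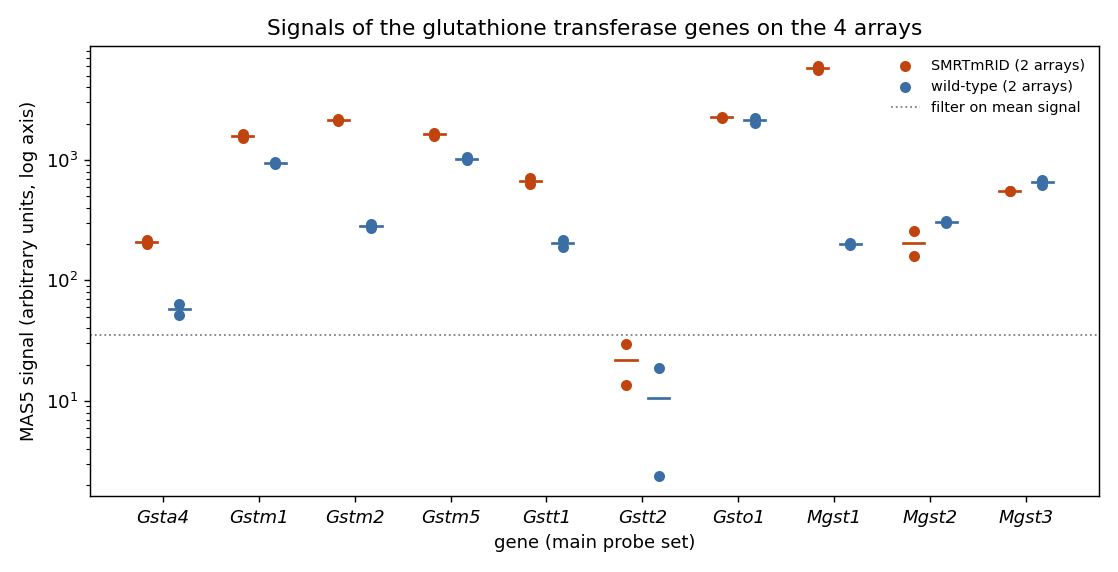
MAS5 signal (arbitrary units, log axis) of the main probe set of each of the 10 transferase genes, with 1 point per array, SMRTmRID to the left of wild-type, and a bar at the mean of the 2 arrays. The dotted line is the filter at a mean signal of 35.1. Mgst1 stands furthest apart (5962 and 5602 against 198 and 203), Gsto1 overlaps, and Gstt2 lies under the filter.

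Among the membrane-bound enzymes Mgst1 was higher in SMRTmRID. Mgst2 and Mgst3 were lower by much smaller differences, and their calls did not hold in every fit. Mgst1 encodes the microsomal transferase that also reduces lipid hydroperoxides and guards membranes against peroxidation. Its signal was 5962 and 5602 on the SMRTmRID arrays and 198 and 203 on the wild-type arrays. Both SMRTmRID arrays were high and both wild-type arrays low. The ratio of means was 28.8, and the log2 difference was 4.74 ± 0.06 (SE, n = 2 arrays per genotype, limma adjusted p = 2.48e-11). It was the 21st greatest rise among the 11056 tested genes. A further probe set designed from the same transcript record had signals of 11.2 and 6.88 in SMRTmRID and 1.82 and 5.81 in wild-type, under the filter. The mean of both probe sets gave a log2 difference of 2.54, in the same direction and past the threshold. The window of the more upstream of the 2 annotated starts of Mgst1 is shown because it holds a match to the antioxidant response element core, TGACNNNGC, in capitals on the reverse strand, 56 to 48 bases before the start. The window of the more downstream start, not shown, held no match to this core or to the other motifs described below. The window shown is chr6:138140277-138140576 on the plus strand (GRCm38.p6, RefSeq), 250 bases before the start to 50 after it.
Mgst1: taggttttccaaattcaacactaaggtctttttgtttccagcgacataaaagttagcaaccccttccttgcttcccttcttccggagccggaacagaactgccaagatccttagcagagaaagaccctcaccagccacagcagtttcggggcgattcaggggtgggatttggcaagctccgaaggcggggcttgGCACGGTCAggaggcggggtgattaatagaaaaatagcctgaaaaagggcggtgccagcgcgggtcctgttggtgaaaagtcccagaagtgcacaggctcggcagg

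Mgst2 encodes a relative of leukotriene C4 synthase that can join glutathione to leukotriene A4. It had signals of 255 and 158 on the SMRTmRID arrays and 298 and 312 on the wild-type arrays. The SMRTmRID arrays were both the lower pair, but they differed from each other by 0.64 on the log2 scale, more than the difference between genotypes. The log2 difference was -0.57 ± 0.18 (SE, n = 2 per genotype, limma adjusted p = 0.0183). Without SMRTmRID replicate 2 it was -0.25 and did not pass (adjusted p = 0.0894), without wild-type replicate 2 it was -0.53 (adjusted p = 0.0563), and without SMRTmRID replicate 1 it was -0.88. Nor did it pass without the filter on signal or without a variance trend. Mgst3, which encodes a further microsomal transferase with peroxidase activity, had signals of 555 and 556 in SMRTmRID and 623 and 686 in wild-type. The groups did not overlap, and the log2 difference was small at -0.23 ± 0.07 (SE, n = 2 per genotype, limma adjusted p = 0.0159). This call was lost without wild-type replicate 2 (-0.16, adjusted p = 0.109) and without a variance trend (adjusted p = 0.0664). It was -0.39 with median centring and -0.48 with the mean of its probe sets. A second Mgst3 probe set had signals of 3.21 and 13.7 in SMRTmRID and 32.2 and 16.4 in wild-type, under the filter.

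The 3 mu class genes among the 10 were all higher in SMRTmRID cells, Gstm2 by the most. Gstm2 had signals of 2194 and 2089 on the SMRTmRID arrays and 296 and 272 on the wild-type arrays. Neither genotype's arrays came near the other's. The ratio of means was 7.54 and the log2 difference 2.85 ± 0.06 (SE, n = 2 per genotype, limma adjusted p = 1.45e-09), with a 95% interval of 2.70 to 2.99. Gstm1, a major mu class enzyme of mouse liver, had signals of 1648 and 1515 in SMRTmRID and 960.0 and 927 in wild-type. The ratio of means was 1.68 and the log2 difference 0.73 ± 0.06 (SE, n = 2 per genotype, limma adjusted p = 3.68e-06), with an interval of 0.60 to 0.87. Gstm5 had signals of 1583 and 1681 in SMRTmRID and 1054 and 992 in wild-type. Its log2 difference was 0.67 ± 0.06 (SE, n = 2 per genotype, limma adjusted p = 6.02e-06), with an interval of 0.54 to 0.79. The intervals of Gstm1 and Gstm5 overlapped and that of Gstm2 lay above both. The difference between these changes was not tested.

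Gstm1 was the member with the most probe sets, and all 4 were higher in SMRTmRID with no overlap between the genotypes. Its log2 differences ran from 0.51 to 0.89, and the fit over 22478 probe sets, of which 59.5% passed, called all 4 with adjusted p of at most 0.0258 (limma). The dimmest of the 4 had signals of 109 and 136 in SMRTmRID and 84.5 and 77.2 in wild-type. Mu class genes are close in sequence, and 2 of the 4 Gstm1 probe sets carry the suffix that Affymetrix gives to sets with probes that also match other transcripts. How much signal the mu class genes shared was not tested.

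Promoter windows of these 3 mu class genes are shown because the genes lie in 1 cluster and all rose. Gstm2 (chr3:107986371-107986670, minus strand), which rose most, held none of the motifs searched. Gstm5 (chr3:107895604-107895903, plus strand) held the antioxidant response element core TGACNNNGC 42 to 34 bases before the start. Gstm1 (chr3:108017769-108018068, minus strand), at the more downstream of its annotated starts, held the nuclear receptor half-site AGGTCA. That match runs from 5 bases before the start to the first transcribed base. The window of the more upstream Gstm1 start, not shown, held none of the motifs searched. All are GRCm38.p6 windows from RefSeq, read along the gene, with motif matches in capitals.
Gstm2: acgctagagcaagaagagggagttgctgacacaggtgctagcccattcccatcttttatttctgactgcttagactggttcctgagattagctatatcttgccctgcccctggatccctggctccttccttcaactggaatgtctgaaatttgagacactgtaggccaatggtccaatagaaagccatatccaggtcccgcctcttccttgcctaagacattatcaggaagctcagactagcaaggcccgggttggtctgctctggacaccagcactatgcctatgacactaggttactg
Gstm5: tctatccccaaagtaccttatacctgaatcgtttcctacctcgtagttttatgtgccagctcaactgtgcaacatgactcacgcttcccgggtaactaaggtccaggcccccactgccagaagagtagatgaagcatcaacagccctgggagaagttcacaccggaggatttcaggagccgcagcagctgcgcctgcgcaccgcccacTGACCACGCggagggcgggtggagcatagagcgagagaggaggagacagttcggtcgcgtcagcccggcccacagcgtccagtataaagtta
Gstm1: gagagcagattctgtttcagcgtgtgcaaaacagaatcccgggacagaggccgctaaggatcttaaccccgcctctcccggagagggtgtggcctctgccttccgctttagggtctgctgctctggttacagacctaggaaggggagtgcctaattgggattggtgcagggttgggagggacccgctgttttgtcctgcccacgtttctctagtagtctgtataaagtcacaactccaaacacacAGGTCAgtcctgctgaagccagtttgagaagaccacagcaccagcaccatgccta

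Windows were found for 8 of the 10 genes, 10 windows in all because Gstm1 and Mgst1 have more than 1 annotated start. Gsta4 and Gstt2 had none here. The motifs were sought on both strands, and their matches did not overlap. TGACNNNGC stood in 2 of the 10 windows, those of Mgst1 and Gstm5, against 12.4% of all 32851 windows. AGGTCA stood in 1 of the 10, that of Gstm1, against 16.3% of all windows. A direct repeat of that half-site with 1 base between its copies stood in none of the 10, and in 13 of all windows. A match describes letters in a window and not a bound site.

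In chromosomal order the mu class genes on chromosome 3 are Gstm5, Gstm7, Gstm6, Gstm3, Gstm2, Gstm1 and Gstm4. Gstm7 had a log2 difference of 1.07 ± 0.19 (SE, n = 2 per genotype, limma adjusted p = 0.00073) on its brighter probe set and -0.34 on another, and the mean of both, 0.36, missed the threshold (adjusted p = 0.0678). Gstm3 and Gstm4, chosen for their position, had log2 differences of 0.01 ± 0.23 and -0.03 ± 0.21 (SE, n = 2 per genotype) and did not pass (limma adjusted p = 0.981 and 0.900). Gstm2 lies between Gstm3, with signals of 65.6 and 46.0 in SMRTmRID and 55.3 and 54.3 in wild-type, and Gstm1. Gstm6 had signals of 18.2 and 27.1 in SMRTmRID and 3.12 and 12.0 in wild-type and was not tested. Of the 3 nearest tested genes on either side of the cluster, Ahcyl1, Csf1 and Gnai3 were higher, Ampd2 was lower, and Slc6a17 and Gnat2 did not pass. Their log2 differences lay between -0.61 and 0.76. These neighbours were taken by position after the members' values were known.

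**Figure D2:**
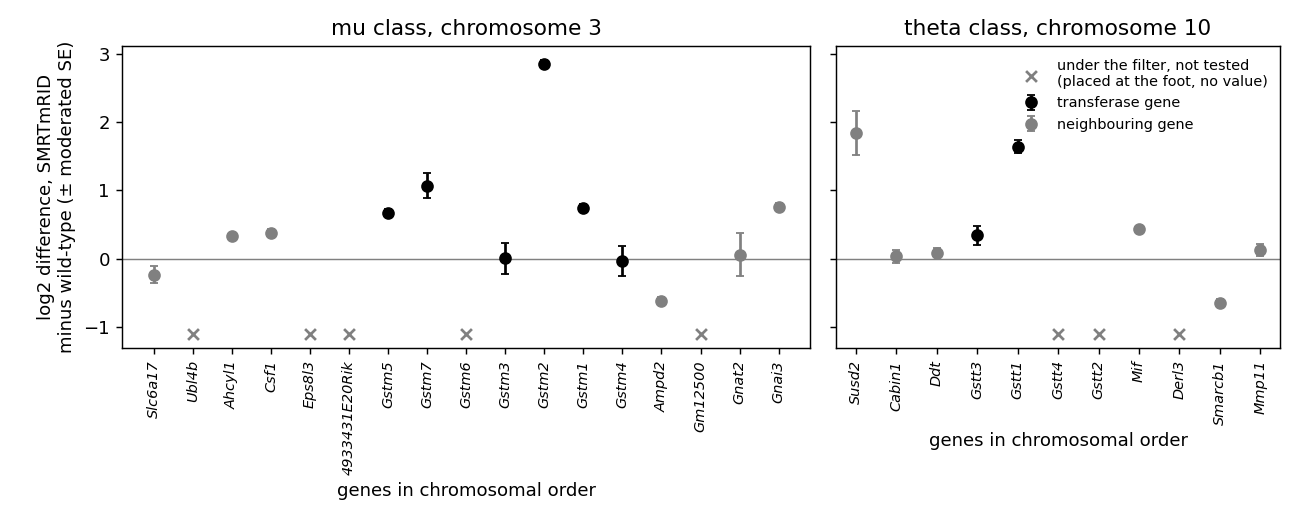
Log2 difference (SMRTmRID minus wild-type, ± moderated SE) of the mu class cluster on chromosome 3 and the theta class cluster on chromosome 10, with the genes in chromosomal order on the x axis, transferase genes in black, and up to 3 tested neighbours on each side in grey. Crosses at the foot mark genes under the filter, which have no value. Gstm2 at 2.85 and Gstt1 at 1.64 stand above the other tested transferase genes of their clusters.

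The theta class is known for acting on small halogenated compounds. Gstt1 had signals of 702 and 631 on the SMRTmRID arrays and 217 and 189.5 on the wild-type arrays. All SMRTmRID values were above all wild-type values. The ratio of means was 3.28 and the log2 difference 1.64 ± 0.09 (SE, n = 2 per genotype, limma adjusted p = 4.51e-07). Gstt2, of the same class, had signals of 29.9 and 13.6 in SMRTmRID and 2.40 and 18.7 in wild-type. The arrays overlapped, the mean lay under the filter, and Gstt2 was not tested. Gstt3, which lies next to Gstt1 on chromosome 10, had signals of 152 and 144 in SMRTmRID and 113 and 114 in wild-type and a log2 difference of 0.34 ± 0.13 (SE, n = 2 per genotype, limma adjusted p = 0.0491). That call was lost with any array left out (adjusted p of 0.0948 to 0.164), and with the replicate block (0.0661). Of the 3 nearest tested genes on either side of the theta cluster, Susd2 and Mif were higher, Smarcb1 had a log2 difference of -0.64, and Cabin1, Ddt and Mmp11 did not pass. Susd2 had signals of 64.3 and 65.1 in SMRTmRID and 12.3 and 2.02 in wild-type, and passed the filter through its SMRTmRID arrays.

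Gsta4 encodes the alpha class enzyme that conjugates 4-hydroxynonenal, an aldehyde released by lipid peroxidation. It had signals of 215 and 199 on the SMRTmRID arrays and 51.9 and 63.7 on the wild-type arrays. The genotypes did not overlap, and the wild-type arrays lay not far above the filter at 35.1. The ratio of means was 3.58 and the log2 difference 1.60 ± 0.16 (SE, n = 2 per genotype, limma adjusted p = 1.44e-05). With a pseudocount of 1 the difference was 1.83, and with 64 it was 1.16, both past the threshold.

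Gsto1 encodes the omega class enzyme, which has a cysteine in its active site and acts as a thioltransferase and dehydroascorbate reductase. It had signals of 2261 and 2235 on the SMRTmRID arrays and 2243 and 2009 on the wild-type arrays. A wild-type array lay between the SMRTmRID arrays, so the genotypes overlapped. The log2 difference was 0.08 ± 0.06 (SE, n = 2 per genotype, limma adjusted p = 0.245), with a 95% interval of -0.05 to 0.21. Its other probe set had signals of 1843 and 1857 in SMRTmRID and 1984 and 2046.5 in wild-type, a log2 difference of -0.12 ± 0.05 (SE, n = 2 per genotype) that did not pass among all probe sets (limma adjusted p = 0.0574). The probe sets of Gsto1 thus differed in sign, and the sign also turned with median centring of the arrays (-0.081, limma adjusted p = 0.508). On the other probe set the genotypes did not overlap. Of the pair only the main probe set carries the suffix for probes that also match other transcripts. The main probe set passed without wild-type replicate 1 (0.16, adjusted p = 0.0423) and with quantile normalization (0.22, adjusted p = 0.0080).

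**Figure D3:**
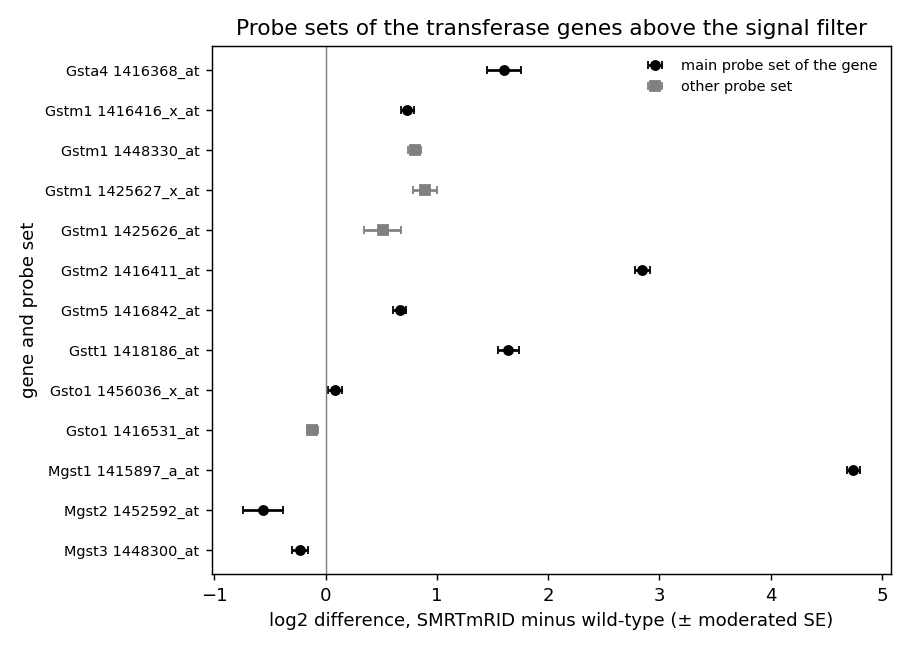
Log2 difference (SMRTmRID minus wild-type, ± moderated SE) of the 13 probe sets of the transferase genes above the signal filter, with the main probe set of each gene as a circle and others as squares. The 4 Gstm1 probe sets lie between 0.51 and 0.89, the 2 of Gsto1 lie on either side of 0, and Mgst1 lies at 4.74.

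The genes whose 4 signals were nearest to those of Mgst1, by distance on the log2(signal + 16) scale over the 4 arrays, were Selenop, Pdgfra and Hp. Selenop, which encodes the plasma selenium carrier, had signals of 4916 and 4655 in SMRTmRID and 221 and 181 in wild-type, at a distance of 0.44. Pdgfra, a growth factor receptor gene, and Hp, which encodes haptoglobin, lay at distances of 0.56 and 0.60. The genes nearest to Mgst2 were Nsun4, Med29 and Rubcn, at distances of 0.17, 0.24 and 0.24. Like Mgst2 (255 and 158), they had a lower signal on SMRTmRID replicate 2 than on replicate 1. These signals were 259 and 164 for Nsun4, 239 and 136 for Med29, and 222 and 169 for Rubcn. With 4 arrays in 2 groups these likenesses reflect little more than level, difference and, for Mgst2, that gap between the SMRTmRID arrays.

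Transferases outside the 10 were mixed. Of 9 tested further cytosolic and mitochondrial transferase genes, 4 were higher, 1 was lower and 4 missed the threshold, around a median of 0.09 (log2 difference). The 4 higher include Gstt3, close to the threshold (limma adjusted p = 0.0491). Their number was 3 with a pseudocount of 1, without the filter on signal, with median centring, with the mean of probe sets and with the replicate block. Over all tested genes 30.3% were higher and 35.0% lower. Gstk1, which encodes the kappa class enzyme of mitochondria and peroxisomes, had signals of 129 and 133 in SMRTmRID and 7.53 and 18.1 in wild-type, a log2 difference of 2.38 ± 0.26 (SE, n = 2 per genotype, limma adjusted p = 2.80e-05). It passed the filter through its SMRTmRID arrays, and the difference was 3.37 with a pseudocount of 1 and 1.35 with 64. Gstcd had a log2 difference of 0.50 and passed. Gstz1, the maleylacetoacetate isomerase of tyrosine breakdown, was lower, with a log2 difference of -0.43. Gstp1, the pi class gene, had signals of 6387 and 6605 in SMRTmRID and 6066 and 6171 in wild-type, and its log2 difference of 0.09 did not pass (limma adjusted p = 0.117), although with quantile normalization it was 0.16 and passed (adjusted p = 0.0037). Gsto2 had a difference of -0.31 and did not pass. Of the 3 other MAPEG genes listed (Ptges, Ltc4s and Alox5ap) only Ptges, which encodes the inducible prostaglandin E synthase, passed the filter, with signals of 513 and 508 in SMRTmRID and 24.9 and 28.2 in wild-type, both under the filter. Its log2 difference was 3.63, and 4.22 and 2.67 with pseudocounts of 1 and 64.

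Genes that reduce glutathione and supply NADPH were mostly lower, and those of its synthesis and turnover went both ways. The counts below stand beside 30.3% higher and 35.0% lower among all tested genes. Of 12 tested genes of glutathione synthesis, cystine uptake and turnover, 6 were lower and 3 higher, with a median log2 difference of -0.42. Gclc, the catalytic subunit of the rate-limiting ligase, had signals of 206 and 181 in SMRTmRID and 430.4 and 452 in wild-type, a log2 difference of -1.13, whereas Gclm, its modifier subunit, chosen after its value was seen, had a difference of 0.85. The cystine transporter gene Slc7a11 had a log2 difference of -1.07 (-0.64 with a pseudocount of 64) and passed the filter through its wild-type arrays, and the glutathione-degrading enzyme gene Chac1 had -1.02. The membrane dipeptidase gene Dpep1 was higher by 3.27 (4.80 and 1.96 with pseudocounts of 1 and 64) and passed the filter through its SMRTmRID arrays, and Ggt5 did not pass, at 0.14. Of 7 tested genes of glutathione reduction and NADPH supply, 5 were lower and 2 higher, with a median of -0.94. The pentose phosphate genes Taldo1, Pgls and Pgd had log2 differences of -1.51, -1.25 and -1.01, and the NADP-dependent dehydrogenase gene Idh1 was higher by 1.02. Gsr, the glutathione reductase gene, also chosen after its value was seen, had a difference of -0.94. Of 9 glutathione peroxidase and glutaredoxin genes, 4 were higher and 4 lower, with Gpx3 at 2.03 (3.02 and 1.08 with pseudocounts of 1 and 64), from wild-type signals under the filter, Gpx7 at 1.27, Glrx at 1.05 and Glrx5 at -0.81, while Glrx3 at -0.23 did not pass.

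In the list of NRF2 regulators and classical targets, which holds no transferases, more genes were lower than higher. Genes that make and reduce glutathione, which NRF2 also drives, were counted in the lists above. Among those Gclm was higher and Gclc and Gsr were lower. Over all tested genes 35.0% were lower and 30.3% higher. Of the 14 tested genes of the NRF2 list 9 were lower, 2 were higher and 3 missed the threshold, around a median of -0.48 (log2 difference). Its 10 targets divided into 6 lower, 1 higher (Cbr1, a carbonyl reductase gene, at 0.68) and 3 that did not pass, and its 4 regulators into 3 lower and 1 higher. Ephx1, the microsomal epoxide hydrolase gene, had signals of 471 and 463 in SMRTmRID and 2201 and 2274 in wild-type, a log2 difference of -2.22. Nqo1, a quinone reductase gene and standard NRF2 target, had signals of 136 and 115 in SMRTmRID and 591 and 573 in wild-type, a log2 difference of -2.08. Osgin1 had a log2 difference of -1.09, and Txnrd1, the thioredoxin reductase gene, had signals of 1162 and 1042 in SMRTmRID and 2151 and 2300 in wild-type and passed. Srxn1 did not pass, at -0.16. The regulators were all named after their values were seen. Nfe2l2, which encodes NRF2 itself, Keap1, its inhibitor, and Mafg, a partner in DNA binding, had differences of -0.35, -0.51 and -0.45 on their brightest probe sets, and Bach1, a repressor of NRF2 targets, was higher by 0.79 (limma adjusted p = 4.68e-06). With the mean of its probe sets, of which only 1 was above the filter, Nfe2l2 stood at 0.030 and missed the threshold. The other Bach1 probe set above the filter had a log2 difference of 0.20. The directions of these genes and of the transferases were noticed in the data and not tested against each other.

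Export and aldehyde detoxification genes went both ways, as did all tested genes, with 30.3% higher and 35.0% lower. Of 4 tested exporter genes of the ABCC family, Abcc3 was higher by 0.52, Abcc4 had a log2 difference of -0.69, and Abcc5 and Abcc1 did not pass, at 0.23 and 0.03, although Abcc5 passed at 0.42 without SMRTmRID replicate 2. Of 9 tested glyoxalase and aldehyde detoxification genes 4 were higher and 2 lower, with a median of 0.05, but 2 were higher with median centring or without SMRTmRID replicate 1, and none was lower without a variance trend. The aldo-keto reductase genes Akr1b10 and Akr1b8 were higher by 1.00 and 0.75 and Aldh3a2 was higher by 0.39, a call lost without SMRTmRID replicate 1 (adjusted p = 0.0532) and with median centring (0.23, adjusted p = 0.111). Akr1a1 had a difference of -0.25, lost without a variance trend (adjusted p = 0.053). Hagh did not pass, at -0.17, but passed with quantile normalization (-0.22, adjusted p = 0.032) and median centring (-0.34, adjusted p = 0.0085). The plot of the lists shows the 9 tested genes of the 10 chosen transferases with a median of 0.73. The 9 further transferase genes stand there at a median of 0.09, and the reduction and NADPH genes at -0.94.

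**Figure D4:**
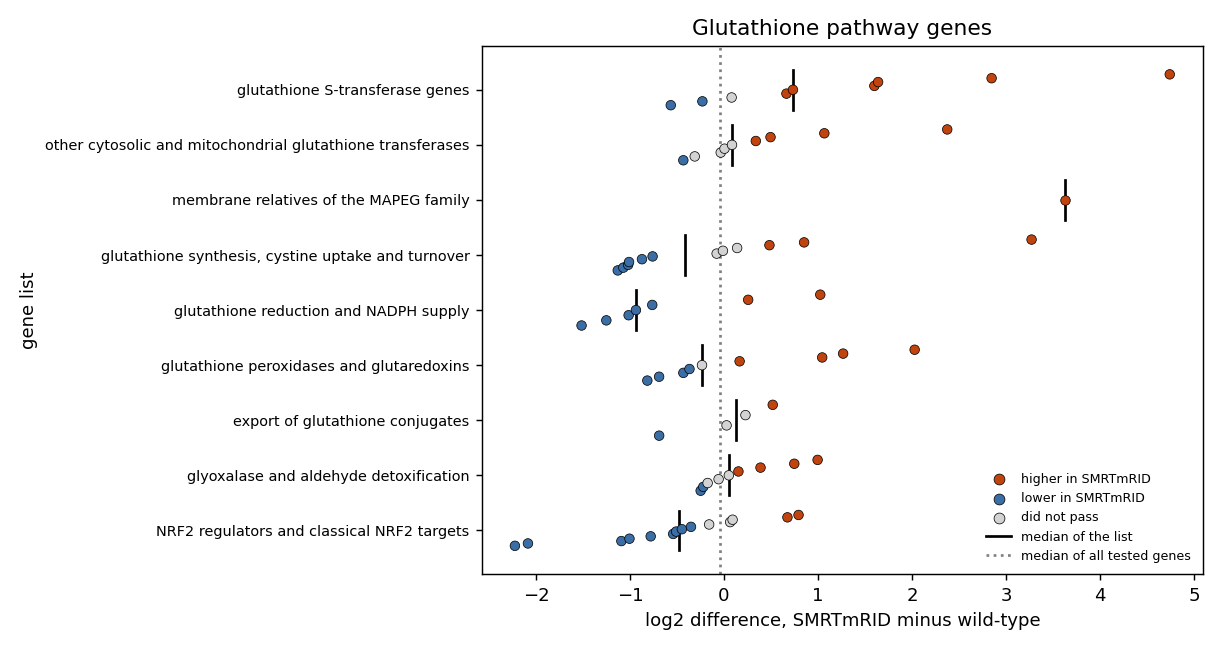
Log2 difference (SMRTmRID minus wild-type) of each tested gene, 1 point per gene. The top row holds the tested genes of the 10 chosen transferases. The 8 lists under it hold further transferase genes (median 0.09), MAPEG relatives, and glutathione and detoxification genes. Colours give the call, black bars the median of each list, and the dotted line the median of all tested genes at -0.05. The points of the top row reach 4.74, and the NRF2 list reaches down to -2.22.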

How the data were processed

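Total RNA of 4 samples was hybridised as biotin-labelled cRNA, per the labels' protocols. The authors deposited a linear MAS5 signal intensity for each probe set on each array, per the submitters' processing notes; the mean without the lowest and highest 2% was 200.0 on each array, so arrays were already scaled. The number of arrays limits the precision. Of 45101 probe sets 64 controls were left out. Of the others 34945 had 1 symbol in GEO's platform annotation, 932 several and 9160 none here, and 34741 of the single-symbol sets had a gene ID found in a GRCm38.p6 table. A gene was tested when its mean signal exceeded the median of all values, 35.1. Genotypes were compared on log2(signal + 16) with limma 3.58.1 in R 4.3.3 (lmFit, eBayes with a variance trend, 4 arrays, two-sided, Benjamini-Hochberg over all tested genes), tested on simulated data. Detection calls were not used here. Figures used matplotlib 3.10.9.

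The members and lists were chosen with earlier results of these data known, so no p is adjusted over a list. All members are named; of each of the 8 lists up to 4 called genes and up to 2 that did not pass, by size of difference; and the 3 genes nearest to Mgst1 and to Mgst2. Alternatives were pseudocounts of 1 and 64, no filter or a stricter one (75th percentile), median centring, quantile normalization, no trend, other probe set rules, a replicate block and each array left out. Replicate numbers are not stated to pair arrays. Deviations of same-numbered arrays from genotype means correlated at 0.012, which cannot decide whether arrays were handled in pairs.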

Additional observations from a re-analysis of the deposited data

How the results depend on the processing

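Under 14 alternatives the 6 raised transferase genes kept direction in all 83 values, and kept their calls wherever all 4 arrays were used. Only the sizes of these differences moved. Gsta4 has no value with the stricter filter, because its mean signal of 133 lay under the 75th percentile, 203. The number of members higher lay between 5 and 7, and between 6 and 7 with an array left out. The number lower was 2, but 3 with the probe set chosen by suffix, 1 without the filter on signal, 0 without a variance trend and 0 to 2 with an array left out (1 without SMRTmRID replicate 2, 0 without wild-type replicate 2); where limma gave 0, 1 had an unadjusted p under 0.05. Mgst2 at -0.57 did not pass without the filter (adjusted p = 0.0616) or without a trend (adjusted p = 0.0982), and ran from -0.88 to -0.25 with an array left out. Mgst3 at -0.23 did not pass without a trend (adjusted p = 0.0664) and ran from -0.30 to -0.16. Gsto1 was 0.22 and passed with quantile normalization, was -0.081 with median centring, -0.020 with the mean of its probe sets and -0.12 (adjusted p = 0.0452) with the probe set chosen by suffix, and ran from 0.0033 to 0.16 with an array left out, passing without wild-type replicate 1. The replicate block changed no call of a member, ended that of Gstt3 and gave 3432 higher and 3986 lower genes in all; the replicate numbers are not known to pair arrays. Arrays left out gave 3011 to 3131 higher and 3474 to 3590 lower genes in all.

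The median of all tested genes was -0.05, -0.11 with quantile normalization and -0.21 with median centring, so small differences depend on scaling. These alternatives were applied to the 42 genes named from the lists after the data were seen, and 538 of 571 values kept direction and call. Of 13 calls lost, 9 were of Gstt3. Of 168 counts, over the 6 lists with more than 4 tested genes, 161 stayed within 1.5 times. The raised aldehyde detoxification genes numbered 2, not 4, with median centring and without SMRTmRID replicate 1, and the lowered ones 0 without a variance trend and 1 with the mean of probe sets, not 2. With the stricter filter the raised further transferases numbered 1, not 4, and the raised synthesis genes 1, not 3; with median centring the raised reduction genes numbered 1, not 2. The 15 reversals were of genes that did not pass, apart from Nfe2l2. With median centring Abcc1 was -0.13, Ggt5 -0.022, Gstm3 -0.16 and Gstp1 -0.077. With quantile normalization Ggt5 was -0.025 and Gstm3 -0.18. With the mean of probe sets Abcc5 was -0.0063 and Nfe2l2 0.030. With an array left out Abcc1 ran from -0.00051 to 0.057, Ggt5 from -0.098 to 0.38, Gstm3 from -0.19 to 0.20, Gstm4 from -0.14 to 0.072 and Gsto2 from -0.63 to 0.0048. Causes were not tested.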
